A study of Arabidopsis thaliana with 9 samples.

Results

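Aerial parts of Arabidopsis thaliana seedlings carrying the spt16-1 allele were compared with those of wild-type Col-0, gene by gene, on single-colour Affymetrix expression arrays. The comparison rests on the 3 arrays of spt16-1 and the 3 arrays of wild type, out of 9 arrays in the series, which were taken by their titles. It covers every probe set that the platform annotation pairs with exactly 1 gene, which are 16722 of the 28501 probe sets and 16548 genes. The other 3 arrays held seedlings of ssrp1-2, an allele of the gene for the partner protein, and are used where spt16-1 is set against them directly. Both mutants are in the Col-0 background, and each mutant genotype is represented by 1 allele. All seedlings were 10 days old and were grown on plates of 0.5 MS, a standard mineral medium. Each array received 200 ng of total RNA from a pool of about 100 mg of shoots. The labels call the arrays biological replicates but leave out whether their pools were sown or plated apart, and the p-values below measure only the spread among them. The labels give only the name of the allele and not its effect on SPT16. SSRP1 and SPT16 had 0 probe sets with a name here, so the level of the mutated gene was not analysed and could not serve as a check of the labels.

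SPT16 and SSRP1 form FACT, a histone chaperone conserved among eukaryotes. FACT loosens contacts between the H2A-H2B dimers and the rest of a nucleosome and helps to put the nucleosome back, so that RNA polymerase II can pass along transcribed chromatin. In plants the complex is associated with actively transcribed genes of euchromatin and has roles in vegetative growth and flowering.

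Array medians lay between 4.95 and 4.98 on the log2 scale over the 6 arrays. Pairs of spt16-1 arrays and pairs of wild-type arrays correlated across probe sets at r = 0.993 to 0.994 (3 pairs each), and spt16-1 with wild-type arrays at 0.990 to 0.992 (9 pairs). Of the markers chosen for the tissue, RCA, the activase of Rubisco in leaves, averaged 12.27 ± 0.02 in spt16-1 and 12.37 ± 0.04 in wild type (log2 level, SD, n = 3 each). The root list had 3 of 9 genes measured and 0 passed (1 at an unadjusted p under 0.05). Among them PYK10, a β-glucosidase of root endoplasmic reticulum bodies, averaged 11.31 ± 0.25 in spt16-1 and 11.22 ± 0.08 in wild type, so transcripts assigned to it were high in both genotypes. Summed on the linear scale, the 3 measured root markers ranged from 2096 to 2851 in spt16-1 and from 2294 to 2554 in wild type. TRY, an R3-type MYB of trichome patterning, had a log2 difference of -0.75 (adjusted p = 0.117) and did not pass. The flower and meiocyte list had 0 genes measured.

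Among the probe sets that passed the test, more were higher in spt16-1 than were lower, while over all 16722 probe sets with 1 gene 8098 had a positive and 8598 a negative difference. Of the 16722 probe sets, 271 passed the test (limma, adjusted p under 0.05 over all 28501 probe sets), which is 1.62%. They comprised 170 that were higher in spt16-1 (1.02%) and 101 that were lower (0.604%), and they stood for 270 genes. The median log2 difference of those that passed was 0.72 for the higher and -0.60 for the lower, against -0.0048 over all 16722. Changes of at least 2-fold were found for 38 higher and 14 lower probe sets, together 0.311% of those tested. In each of the 271, the 3 arrays of spt16-1 lay apart from the 3 of wild type, which was so for 15% of all probe sets with 1 gene. Of the 271, 99 still passed without any 1 of the 6 arrays, and 50 no longer passed whichever array was left out. The count itself was 148 when spt16-1 replicate 1 was left out, 131 for its replicate 2 and 146 for its replicate 3, and 155, 160 and 154 when the same replicates of wild type were. Over all 28501 probe sets 576 passed (2.02%), 346 of them higher in spt16-1 (1.21%) and 230 lower (0.807%). For 14896 of the 16722 probe sets the annotation used here gives the locus as the only name. The same held for 216 of the 271 that passed, so function could be described for the 55 with a gene symbol, 33 higher and 22 lower. They are taken up below by known role, in groupings made with their values in view, and only the counts of gene lists and families describe a group. Lists took in genes by symbol, alias or listed locus, and families by symbol. Each count therefore covers the matched genes, and members known here only by locus can be missing.

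**Figure D1:**
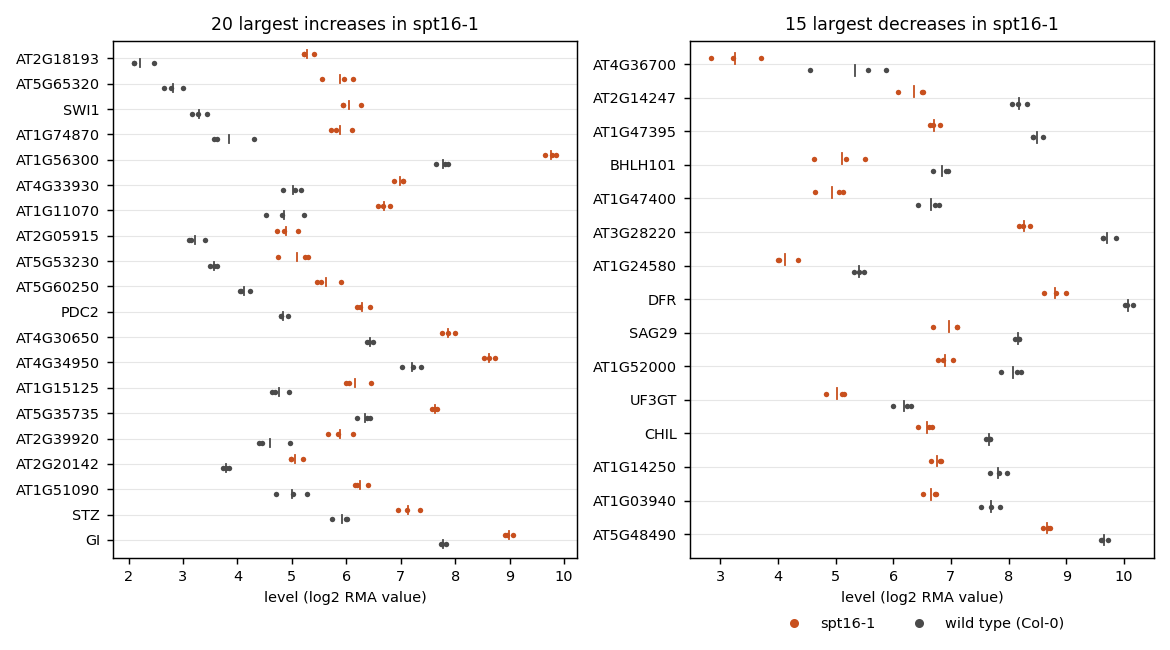
Levels (log2 RMA value, horizontal axis) of the 20 genes with the largest increase and the 15 with the largest decrease in spt16-1 among those that passed. Each row is a gene, each point an array and each vertical tick a mean, with spt16-1 in orange above wild type in grey. The 3 spt16-1 points lie to 1 side of the 3 wild-type points in every row.

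The largest increase among genes with a symbol was that of SWI1, which encodes a protein needed for sister chromatid cohesion and chromosome structure in meiosis and is known from meiocytes. SWI1 stood at 6.26, 5.93 and 5.95 in spt16-1, against 3.17, 3.45 and 3.28 in wild type. No array of spt16-1 came within 2 log2 units of any of wild type, and the log2 difference was 2.75 ± 0.16 (SE, adjusted p = 0.000138). The wild-type values lie just above 3.13, the level under which 25% of all probe sets fall and at which a transcript is not shown to stand above background. The other measured genes of the meiosis list did not pass: ZYP1a and ZYP1b, proteins of the synaptonemal complex, had differences of 0.48 (adjusted p = 0.640) and 0.19 (0.686). The list thus had 1 of 5 probe sets higher and 0 lower, with a median of 0.19. PHE1, a type I MADS-box factor known from endosperm, had levels of 5.35, 5.86 and 5.63 in spt16-1, against 4.82, 4.29 and 4.38 in wild type. The groups did not overlap, and PHE1 was higher by 1.12 ± 0.18 (SE, adjusted p = 0.0175). Without wild-type replicate 2 or 3 or spt16-1 replicate 2 or 3 its adjusted p was 0.0683 to 0.0733. PHE1 was the only one of the 68 probe sets of the MADS list to pass in either direction. That is near the 1.62% of all probe sets with 1 gene that passed. Of those 68, 44 had a mean level under 3.13.

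PDC2, FDH, ALDH6B2 and THIC, which encode metabolic enzymes, were higher in spt16-1, and MGL, which encodes another, was lower. PDC2, a pyruvate decarboxylase, which makes acetaldehyde from pyruvate on the route to ethanol, stood at 6.26, 6.19 and 6.44 in spt16-1, against 4.80, 4.80 and 4.93 in wild type. All spt16-1 arrays were more than 1 log2 unit above all wild-type arrays, with a difference of 1.45 ± 0.13 (SE, adjusted p = 0.000912). FDH, the mitochondrial formate dehydrogenase, was higher by 0.50 (adjusted p = 0.00760), with 8.47, 8.38 and 8.52 in spt16-1 against 7.89, 7.98 and 7.99 in wild type. ALDH6B2, an aldehyde dehydrogenase of the methylmalonate semialdehyde type, rose by 0.37 (adjusted p = 0.0317). It was the only one of 8 measured ALDH genes to pass, against 1.62% of all probe sets with 1 gene. THIC, the pyrimidine synthase of vitamin B1 formation, rose by 0.46 (adjusted p = 0.0245). The call of THIC ended without any 1 of the 3 wild-type arrays or of spt16-1 replicates 1 and 2 (adjusted p 0.0533 to 0.0917), and that of ALDH6B2 without any 1 of the 6 arrays (0.0693 to 0.105). In the opposite direction, MGL, methionine gamma-lyase, which splits methionine, had 6.58, 6.64 and 6.59 in spt16-1 and 7.04, 7.07 and 7.14 in wild type. Its fall of 0.48 had an adjusted p of 0.0111, and the highest adjusted p without 1 array was 0.04995.

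AT5G26570, DPE1 and TMT1 were higher in spt16-1, and AT4G24450, SAG29 and SWEET13 were lower. AT5G26570, whose symbol is PWD and whose product, phosphoglucan water dikinase, phosphorylates starch ahead of its breakdown, had 8.79, 8.80 and 8.73 in spt16-1, against 8.15, 8.08 and 8.09 in wild type. The spread within each genotype was a small part of that gap, and the difference was 0.67 ± 0.06 (SE, adjusted p = 0.00134). AT4G24450 carries the same symbol in the annotation and moved the other way, with 5.32, 5.54 and 5.36 in spt16-1 against 6.33, 5.96 and 6.17 in wild type (log2 difference -0.75, adjusted p = 0.0121). DPE1, the plastid enzyme that recycles maltotriose during starch breakdown, was higher by 0.49 (adjusted p = 0.0245), and TMT1, a tonoplast carrier that loads monosaccharides into the vacuole, by 0.40 (0.0236). TMT1 was the only one to pass of 5 sugar transport genes matched by symbol or alias outside the SWEET family. Among the SWEET carriers, which move sugars across membranes, SAG29 stood at 7.10, 7.10 and 6.70 in spt16-1, against 8.11, 8.17 and 8.18 in wild type, a fall of 1.19 (adjusted p = 0.00442). SWEET13 fell by 0.62 (adjusted p = 0.0424). Thus 2 of 16 SWEET probe sets were lower and 0 higher, against 1.62% called among all probe sets with 1 gene. The median of those 16 was -0.15, and SWEET11 and SWEET2 did not pass, at -0.33 and -0.41 (adjusted p = 0.103 and 0.230). Leaving out an array ended the call of AT4G24450 for spt16-1 replicates 1 and 3 and wild-type replicate 3 (adjusted p 0.0519 to 0.0554) and that of DPE1 for these 3 and wild-type replicate 2 (0.0701 to 0.0901). It ended that of SWEET13 for every array except wild-type replicate 2 (0.0572 to 0.154) and that of TMT1 for each of the 6 (0.0642 to 0.0893).

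PORB, PIFI and CHL, further genes for chloroplast proteins beside DPE1 above, were higher in spt16-1, and FIB was lower. PORB, a light-dependent protochlorophyllide oxidoreductase of chlorophyll synthesis, had 11.62, 11.68 and 11.74 in spt16-1, against 11.20, 11.26 and 11.17 in wild type. The gap of 0.47 ± 0.06 (SE, adjusted p = 0.00712) was the difference at the highest mean level among the 55 genes with a symbol. PIFI, a stromal protein named for the post-illumination rise of chlorophyll fluorescence, was higher by 0.48 (adjusted p = 0.00983), with 9.97, 10.09 and 10.03 in spt16-1 and 9.62, 9.51 and 9.52 in wild type. CHL, a lipocalin of the chloroplast, was higher by 0.68 (adjusted p = 0.0163). FIB, a fibrillin of plastoglobules, was lower by 0.46 (adjusted p = 0.0414). The nuclear photosynthesis list had 0 of 9 probe sets past the test and a median of -0.091, and 0 of 63 probe sets for genes of the chloroplast genome passed, with a median of -0.00091 and a range of -0.28 to 0.055. At an unadjusted p under 0.05 these counts were 1 and 1. AFR, an F-box protein that promotes phytochrome A signalling under far-red light, fell at 1 of its 2 probe sets, by 0.70 (adjusted p = 0.0105), with 6.21, 6.08 and 5.90 in spt16-1 against 6.81, 6.85 and 6.61 in wild type. Its second probe set, at a mean level near 3.6, had a difference of -0.080. The fit of the 2 genotypes alone ended the call of AFR. The call of CHL ended without any array but wild-type replicate 1 (adjusted p 0.0592 to 0.0674), and that of FIB without any 1 of the 6 (0.0693 to 0.138).

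**Figure D2:**
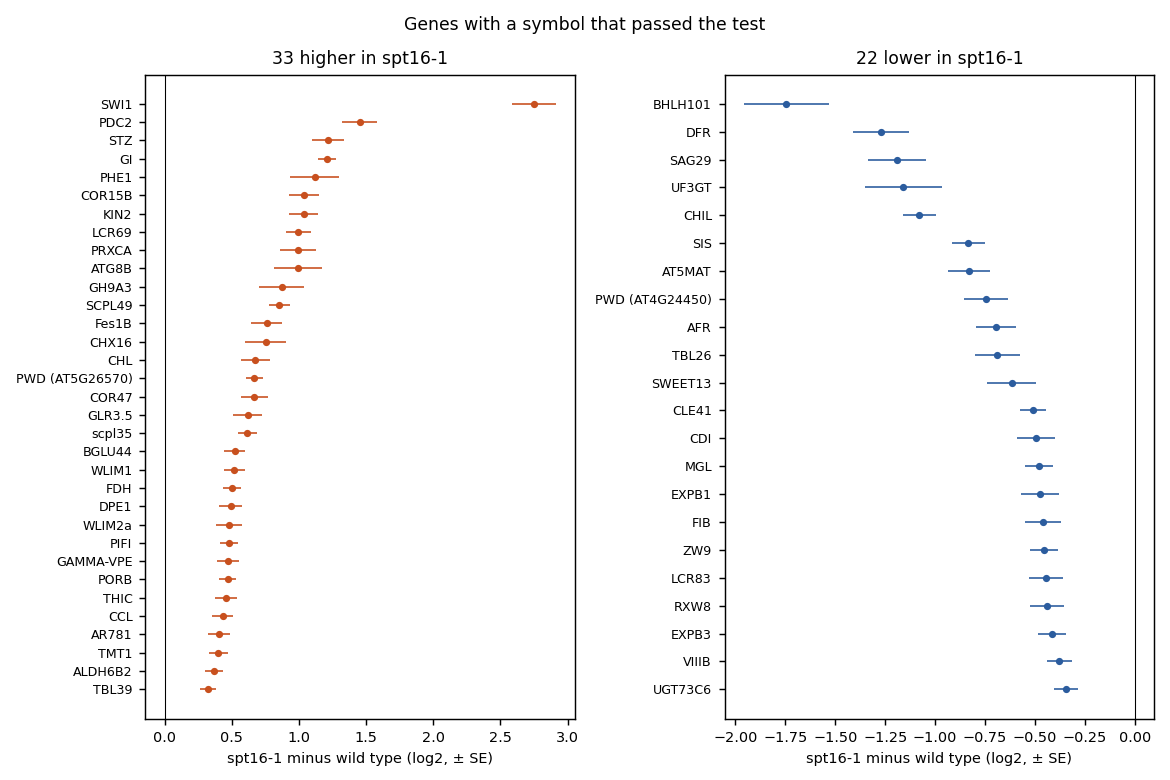
Log2 difference of spt16-1 minus wild type (horizontal axis, bars are SE from limma) for the 55 genes with a symbol that passed. The left panel holds the 33 higher genes, led by SWI1 at 2.75, and the right panel the 22 lower genes, led by BHLH101 at -1.75. LCR83, in the right panel, had a mean level below 3.13 in both genotypes.

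GI, STZ, CCL and GLR3.5 were higher in spt16-1, and CLE41 was lower. GI, a clock-associated protein that promotes flowering in long days, had 8.92, 9.06 and 8.95 in spt16-1, against 7.74, 7.75 and 7.82 in wild type. The 2 groups were tight and more than 1 log2 unit apart, and the difference was 1.21 ± 0.07 (SE, adjusted p = 8.99e-05). SNZ and SMZ, AP2-type repressors of flowering, did not pass, at -0.34 and -0.32 (adjusted p = 0.184 and 0.256), and were the other 2 measured genes of the 19 on the clock and flowering list. STZ, a zinc-finger repressor of transcription that acts in stress responses, stood at 7.11, 7.35 and 6.95 in spt16-1, against 5.74, 6.02 and 6.0 in wild type (1.22 ± 0.12, SE, adjusted p = 0.00134). CCL, named for its likeness to the clock-regulated gene CCR, rose by 0.43 (adjusted p = 0.0256), a call that ended without any array but spt16-1 replicate 3 (adjusted p 0.0584 to 0.10). CLE41, the precursor of a peptide that keeps vascular stem cells undifferentiated, had 6.54, 6.39 and 6.50 in spt16-1, against 6.98, 6.99 and 7.0 in wild type. The wild-type arrays were almost equal and the fall was 0.51 (adjusted p = 0.00550). CLE41 was the only one of 16 measured CLE genes to pass, against 1.62% of all probe sets with 1 gene. The family's median was -0.049. GLR3.5, a glutamate receptor-like cation channel, was the only one of 10 GLR genes to pass (0.62, adjusted p = 0.0234), and its call ended without any 1 of the 6 arrays (adjusted p 0.0541 to 0.0978).

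The iron list, whose 3 called genes were known to fall from earlier results of these data, is given here by array. BHLH101, a bHLH factor of the iron-deficiency response, had 5.18, 4.63 and 5.51 in spt16-1, against 6.95, 6.69 and 6.91 in wild type. AT1G47395 and AT1G47400, listed here by locus as genes of short peptides that act in iron signalling, are neighbours. AT1G47395 had 6.69, 6.64 and 6.81 in spt16-1, against 8.43, 8.42 and 8.60 in wild type. AT1G47400 had 5.06, 4.65 and 5.13 in spt16-1, against 6.73, 6.42 and 6.80 in wild type. All 9 of these spt16-1 values were below all wild-type values of the same gene. With PYE, a bHLH repressor of iron genes, at -0.38 (adjusted p = 0.235), 3 of 4 measured members were lower and 0 higher, and the median was -1.73. BHLH101 was also the only one of 10 probe sets of the bHLH list to pass, against 1.62% of all probe sets with 1 gene. The median of that list was -0.023. That list holds only genes matched by symbol or alias, so it does not cover the whole bHLH family.

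Several families of secreted, vacuolar and stress proteins held 1 or 2 called genes each. LCR69, a small cysteine-rich protein of the defensin type, had 9.23, 9.32 and 9.08 in spt16-1, against 8.30, 8.11 and 8.23 in wild type, a difference of 0.99 ± 0.09 (SE, adjusted p = 0.00114). LCR83 passed as lower (adjusted p = 0.0333), but both means lay below 3.13, so no size is given for it. The defensin-like list therefore had 1 of 85 probe sets higher and 1 lower, with 72 of the 85 under 3.13. Its match by symbol also took in PDF1A and PDF1B, which are peptide deformylases and not defensins, and neither passed. PRXCA, an apoplastic class III peroxidase, had 5.08, 5.18 and 4.82 in spt16-1 and 4.11, 4.23 and 3.76 in wild type (0.99, adjusted p = 0.00693), and no other of the 9 probe sets of the peroxidase list passed. SCPL49, a serine carboxypeptidase-like protein, had 8.99, 9.11 and 9.19 in spt16-1, against 8.19, 8.25 and 8.29 in wild type (0.85 ± 0.08, SE, adjusted p = 0.00110). A second member of that family, scpl35, rose by 0.61 (adjusted p = 0.00301), with 7.33, 7.27 and 7.40 in spt16-1 and 6.71, 6.76 and 6.71 in wild type. Of the 33 SCPL probe sets 2 were higher and 0 lower, while the median was -0.031. These family and list counts stand beside 1.62% called among all probe sets with 1 gene. GAMMA-VPE, a vacuolar cysteine protease that processes other proteins, rose by 0.47 (adjusted p = 0.0246), and ATG8B, the ubiquitin-like protein of autophagosome membranes, by 0.99 (0.0264). Fes1B, a cofactor of HSP70 chaperones, rose by 0.76 (adjusted p = 0.0138) and was the only one of 6 probe sets of the heat-shock list to pass. The call of PRXCA ended in the fit of the 2 genotypes alone. Without 1 array, LCR83 lost its call for each of the 6 (adjusted p 0.0574 to 0.112), GAMMA-VPE for all but spt16-1 replicate 3 (0.0532 to 0.0921) and ATG8B for all but wild-type replicate 2 (0.0634 to 0.107). Fes1B lost it for wild-type replicate 2 and each spt16-1 array (0.0511 to 0.0614).

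BGLU44, GH9A3, WLIM1, WLIM2a and TBL39 were higher in spt16-1, and EXPB1, EXPB3, TBL26 and VIIIB were lower. BGLU44, a β-glucosidase with a high level, had 10.84, 10.83 and 10.76 in spt16-1, against 10.13, 10.36 and 10.38 in wild type (0.52, adjusted p = 0.0138). GH9A3, a membrane-bound endoglucanase, was higher by 0.87 (adjusted p = 0.0364). WLIM1 and WLIM2a, LIM-domain proteins that bundle actin, were higher by 0.52 (adjusted p = 0.0119) and 0.48 (0.0411), while VIIIB, a myosin, was lower by 0.38 (0.0212). EXPB1 and EXPB3, β-expansins of the loosening wall, were lower by 0.48 and 0.41 (adjusted p = 0.0399 and 0.0212). They were the only 2 of 25 expansin probe sets to pass and 2 of the 5 β-expansins, against 1.62% of all probe sets with 1 gene. Among 23 genes of the TBL family, whose studied members acetylate wall polysaccharides, TBL26 was lower by 0.69 (adjusted p = 0.0190) and TBL39 higher by 0.32 (0.0316). Each of these calls ended without at least 1 array. BGLU44 lost its call without spt16-1 replicates 1 or 2 (adjusted p 0.0574 to 0.0635) and WLIM1 without wild-type replicates 1 or 2 or spt16-1 replicate 2 (0.0503 to 0.0539). GH9A3 lost it without replicates 1 or 2 of either genotype (0.0918 to 0.128), and TBL26 and VIIIB without replicates 1 or 3 of either (0.0523 to 0.0804). EXPB1 was uncalled without any array but wild-type replicate 2 (0.0855 to 0.134), EXPB3 without any but spt16-1 replicate 3 (0.0606 to 0.0813), and WLIM2a and TBL39 without any 1 of the 6 (0.0645 to 0.138).

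The remaining genes with a symbol were fewer. CHIL, a chalcone isomerase-like protein that aids early flavonoid synthesis, had 6.63, 6.43 and 6.68 in spt16-1, against 7.67, 7.62 and 7.69 in wild type, a fall of 1.08 ± 0.08 (SE, adjusted p = 0.000363). It fell beside the late anthocyanin enzymes DFR (-1.27), UF3GT (-1.16) and AT5MAT (-0.83). UGT73C6, a glucosyltransferase of flavonols, was lower by 0.35 (adjusted p = 0.0214). It and UF3GT were the only 2 of 60 probe sets of the UGT list to pass, against 1.62% of all probe sets with 1 gene. Of 5 measured cold-regulated genes, COR15B, KIN2 and COR47 were higher by 1.04, 1.03 and 0.67. SIS, named as induced by salt and rich in serine, had 6.93, 6.86 and 7.07 in spt16-1, against 7.79, 7.83 and 7.74 in wild type (-0.83, adjusted p = 0.00134). CHX16, a cation/proton exchanger, was higher by 0.75 (adjusted p = 0.0472), a value that did not pass after quantile normalization. AR781 was higher by 0.40, and CDI, ZW9 and RXW8 were lower by 0.49, 0.46 and 0.44. Without 1 array, UGT73C6, AR781 and RXW8 were uncalled for each of the 6 (adjusted p 0.0541 to 0.154), UF3GT for all but wild-type replicate 2 (0.0571 to 0.0856) and CDI for all but wild-type replicate 1 (0.0956 to 0.126). ZW9 and CHX16 were uncalled for all but wild-type replicate 3 (0.0525 to 0.157), and COR47 for replicates 2 and 3 of either genotype (0.0501 to 0.0555).

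Most of the largest changes fell on genes known here only by their locus, as are 14896 of the 16722 probe sets with 1 gene. AT2G18193 had 5.41, 5.22 and 5.22 in spt16-1, against 2.10, 2.46 and 2.09 in wild type, and AT5G65320 had 6.13, 5.96 and 5.55 in spt16-1, against 2.78, 3.01 and 2.65 in wild type. In wild type both means lay below 3.13, so no fold change is given for them. They were the only 2 of the 20 largest increases with such a wild-type mean, and all 15 of the largest decreases had a mean above 3.13 in spt16-1. AT1G74870 stood at 5.71, 6.11 and 5.81 in spt16-1, against 4.31, 3.63 and 3.57 in wild type (log2 difference 2.04, adjusted p = 0.00224). AT1G56300 combined a large change with a high level, at 9.85, 9.78 and 9.65 in spt16-1 against 7.86, 7.65 and 7.81 in wild type, which is 3.96-fold higher (adjusted p = 1.75e-05). AT4G33930 was higher by 1.96 (adjusted p = 0.000161), with 6.87, 7.04 and 7.04 in spt16-1 and 5.06, 5.17 and 4.83 in wild type. AT4G34950 (1.42, adjusted p = 0.000252) and AT4G30650 (1.44, 8.29e-05) also rose with no overlap and no array on which the call depended. AT2G05915 was higher by 1.67 at 1 probe set (adjusted p = 0.000252) and by 0.23 at its second, which did not pass.

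Among the decreases, AT2G14247 had 6.51, 6.08 and 6.50 in spt16-1, against 8.05, 8.16 and 8.31 in wild type (-1.81, adjusted p = 0.00207). AT3G28220 had 8.17, 8.37 and 8.26 in spt16-1, against 9.63, 9.64 and 9.86 in wild type (-1.44, adjusted p = 0.000173). AT5G48490, a gene of high level, had 8.60, 8.72 and 8.68 in spt16-1, against 9.60, 9.62 and 9.72 in wild type, with SDs of 0.06 in both (-0.98, adjusted p = 0.000427). These 3 genes, like AT1G14250 (-1.06) and AT1G24580 (-1.28), passed without any 1 array. The numerically largest decrease, that of AT4G36700, was the least settled. It had 3.23, 2.84 and 3.71 in spt16-1, against 5.57, 5.88 and 4.56 in wild type (-2.08 ± 0.38, SE, adjusted p = 0.0306), and it no longer passed without any array but wild-type replicate 3 (adjusted p 0.0554 to 0.121).

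**Figure D3:**
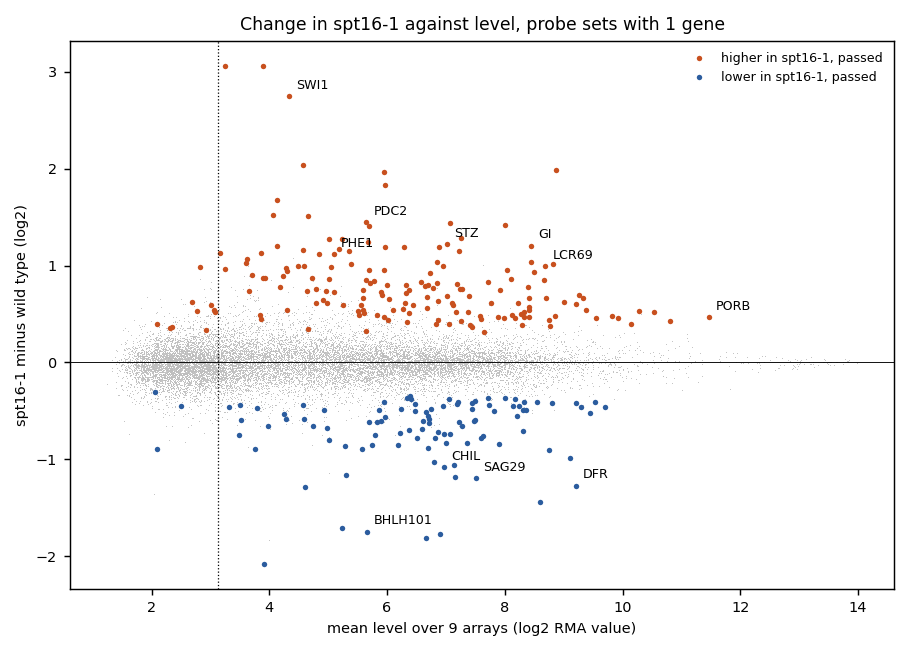
Log2 difference of spt16-1 minus wild type (vertical axis) against the mean level over 9 arrays (horizontal axis, log2) for the 16722 probe sets with 1 gene. Orange points passed and were higher, blue points passed and were lower, grey points did not pass, and the dotted line marks the level of 3.13. Of the highest 25% of levels 3.61% passed, against 0.265% of the lowest 25%.

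The share of probe sets that passed was larger at higher levels. In 4 bins cut so that each holds 25% of all 28501 mean levels, 0.265% of the lowest, 1.11% of the second, 2.19% of the third and 3.61% of the highest passed. Genes of low level are therefore thinly represented among the calls. Of the 170 higher probe sets, 16 had a wild-type mean below 3.13, and in 6 of these the spt16-1 mean was below it too. By chromosome, 1.67%, 1.93%, 1.29%, 2.02% and 1.44% of probe sets on chromosomes 1 to 5 passed.

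Of 10354 pairs of neighbouring protein-coding genes with both members measured, 5 had both members past the test. Of the measured neighbours of called genes, 2.88% were called, against 1.62% of all probe sets with 1 gene. The first share rests on those 5 pairs and takes the probe set with the smallest p of each protein-coding gene. The shares are therefore not counted alike. AT4G17100 and AT4G17140 were both higher, by 0.77 and 0.69, and AT1G07040 and AT1G07050 by 0.48 and 0.91. AT4G06534 and AT4G06536 were both lower, by 0.75 and 0.60, as were AT1G47395 and AT1G47400. In the fifth pair AT1G74870 was higher by 2.04 while AT1G74875 was lower by 0.53. AT1G74875 had 4.04, 4.10 and 4.04 in spt16-1, against 4.47, 4.60 and 4.70 in wild type (adjusted p = 0.0190). Probe design and strand are not given in the sources used here, so signal shared by adjacent genes could not be told apart from separate changes. Around the 20 largest increases 28 neighbours were measured, of which 0 were called in the same direction and 1 in the opposite one. Around SWI1 the neighbours AT5G51310 and AT5G51340 had differences of 0.085 and -0.11. Around the 15 largest decreases 19 neighbours were measured, and the 2 called ones were AT1G47395 and AT1G47400 themselves. Without 1 array, AT1G07040 was uncalled for replicates 2 and 3 of either genotype (adjusted p 0.0703 to 0.0777), AT4G06536 for all but spt16-1 replicate 2 (0.0818 to 0.111) and AT1G74875 for all but wild-type replicate 1 (0.0635 to 0.0704).

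Of 48 families with at least 5 measured genes, 12 held a called gene. Of their 685 probe sets 16 passed, which is 2.34%, against 1.62% of all probe sets with 1 gene. These shares are not counted alike, because families hold only genes with a symbol. Of the 16722 probe sets, 14896 had a locus as the only name, as had 216 of the 271 that passed. Of the 69 gene lists, 52 had a measured gene matched to them and 17 had none, and 16 of the 52 held a call. A list with none can still have members that were measured under a locus name alone. No list other than the iron, anthocyanin and cold lists had as many as 3 called members. Those lists name single loci and were chosen with earlier results of these data known, so their counts are not an independent result. The cytochrome P450 list, oxidases of secondary and hormone metabolism, had 0 of 26 probe sets called and a range of -0.42 to 0.73. Among transcription factors, 0 of 7 WRKY probe sets passed, of which WRKY47 was at 0.41 (adjusted p = 0.0994), and 0 of 25 bZIP probe sets. The list of auxin-related ARF, IAA and SAUR genes had 0 of 8, with a median of -0.16. All 8 were IAA genes, so ARF and SAUR genes were not covered. XTH, the xyloglucan-modifying enzymes, had 0 of 10, GST 0 of 15 and RALFL, small peptide signals, 0 of 18. At an unadjusted p under 0.05 the counts in these lists were 4 for cytochrome P450, 3 for WRKY, 4 for bZIP, 1 for the auxin genes, 2 for XTH, 2 for GST and 1 for RALFL, against 11.1% of all probe sets with 1 gene. The WRKY count at that level was thus 3 of 7.

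**Figure D4:**
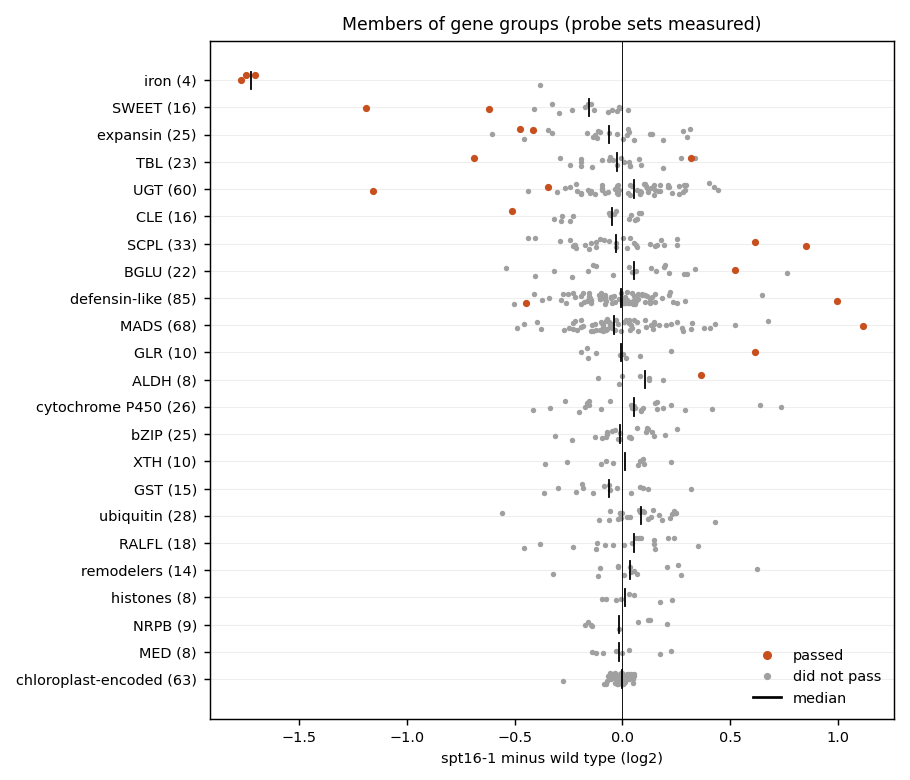
Log2 difference of spt16-1 minus wild type (horizontal axis) for members of 23 gene groups, with the number of measured probe sets in brackets. Each point is a probe set, orange where it passed and grey where it did not, and the black tick is the median. Only the iron group has a median beyond 1 in size, at -1.73, and its 3 called genes were known to fall from earlier results of these data.

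Genes matched to the lists and families of chromatin and transcription machinery held no call by limma. At the 1.62% that passed among all probe sets with 1 gene, groups this small would mostly hold none. This was so for 0 of 8 histone genes (median 0.010, range -0.096 to 0.23) and 0 of 14 chromatin remodelers, of which chr31 had the largest value, 0.63 (adjusted p = 0.0930). It was also so for 0 of 9 NRPB genes for subunits of RNA polymerase II (median -0.016), 0 of 8 MED genes of the Mediator complex (-0.016) and 0 of 5 THO genes of the transcript export complex (0.00033). Of 7 listed FACT and elongation factor genes 1 was measured, AT5G08565 at 0.059, and of 7 other histone chaperones 2 were measured and neither passed. The ubiquitin list, conjugating enzymes and proteases of the ubiquitin system, had 0 of 28 called, with a median of 0.085. At an unadjusted p under 0.05, 0 of the histone, NRPB, MED and THO genes, 4 of the remodelers and 3 of the ubiquitin list would have counted, against 11.1% of all probe sets with 1 gene. The smallest difference called for any probe set with 1 gene was 0.31, and larger values in these groups, such as that of chr31, did not pass.

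Set directly against ssrp1-2, spt16-1 differed at 238 of all probe sets (0.835%) and at 99 of the 16722 with 1 gene (0.592%), of which 37 were higher (0.221%) and 62 lower (0.371%). Of the 271 that passed against wild type, 38 also differed between the mutants, which is 38 of those 99, and 233 did not pass that test. Of those 38, 25 were higher than both other genotypes and 3 lower than both. A further 7 were above wild type but below ssrp1-2, and 3 were below wild type but above ssrp1-2. Both comparisons use the same spt16-1 arrays. Of the 20 largest increases, 10 were also higher than ssrp1-2 and 2 lower, and of the 15 largest decreases 0 were lower than ssrp1-2 and 2 higher. Those 2 were the iron genes AT1G47395 and AT1G47400 (limma adjusted p = 0.0218 and 0.0371). The call of AT1G47395 ended without any 1 of 4 arrays and that of AT1G47400 without any 1 of 5.

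SWI1 stood at 6.26, 5.93 and 5.95 in spt16-1 and at 3.49, 4.0 and 3.42 in ssrp1-2, a difference of 2.41 (adjusted p = 0.000771). AT2G18193 was at 2.05, 2.46 and 2.25 and AT5G65320 at 3.0, 3.14 and 2.78 in ssrp1-2, and both passed as higher in spt16-1 (adjusted p = 0.000136 and 0.000254). Both ssrp1-2 means lay below 3.13, so no size is given. AT1G74870, AT5G53230 and AT5G60250 were higher than in ssrp1-2 by 1.89, 1.57 and 1.38 (adjusted p = 0.00758, 0.00343 and 0.00320). For SWI1 and these 3 genes ssrp1-2 minus wild type lay between -0.04 and 0.34 and did not pass. AT4G33930 and AT4G30650 were higher in spt16-1 than in ssrp1-2 by 1.13 and 0.95, and ssrp1-2 was itself above wild type by 0.83 and 0.49. All 8 of these differences between the mutants passed without any 1 array, and that of AT1G74870 did not pass in the unmoderated test. GI was higher than in ssrp1-2 by 0.40 (adjusted p = 0.0385) and LCR69 by 0.56 (0.0345), and both ended as calls without any 1 of the 6 arrays (adjusted p 0.0604 to 0.120). PDC2, at 5.83, 5.53 and 6.04 in ssrp1-2, differed by 0.49 without passing (adjusted p = 0.163).

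The opposite order, with ssrp1-2 above spt16-1 above wild type, was seen for AT2G20142, which had 4.99, 5.20 and 4.99 in spt16-1, 6.10, 6.29 and 6.13 in ssrp1-2 and 3.80, 3.84 and 3.74 in wild type. Its difference of spt16-1 minus ssrp1-2 was -1.11 (adjusted p = 0.00166). STZ had 7.88, 8.01 and 8.05 in ssrp1-2, and spt16-1 was lower by 0.84 (adjusted p = 0.0178), a call that ended without spt16-1 replicates 1 or 3 or ssrp1-2 replicates 2 or 3 (adjusted p 0.0680 to 0.0821). AT2G24600 had 5.31, 5.64 and 5.61 in spt16-1, 6.76, 6.82 and 6.65 in ssrp1-2 and 4.74, 4.82 and 4.45 in wild type. Its rise of 0.85 over wild type (adjusted p = 0.0100) did not pass without spt16-1 replicate 2 (0.0503). AT5G24210 differed from ssrp1-2 by -1.11 (adjusted p = 0.00144) and from wild type by -0.23, which did not pass (0.291). CHIL, AT1G14250 and AT1G60590 had differences between the mutants of -0.07, -0.06 and 0.02 (adjusted p = 0.784, 0.871 and 0.956) and fell against wild type by 1.08, 1.06 and 0.84. A p above the threshold does not show equal levels in the mutants.

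**Figure D5:**
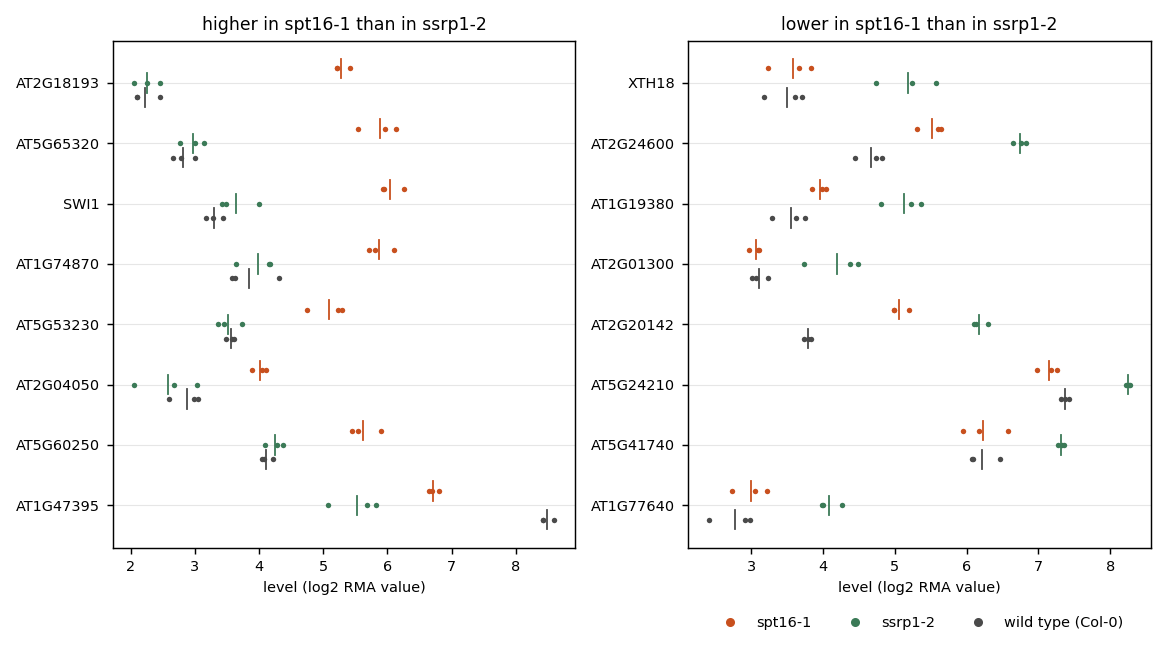
Levels (log2 RMA value, horizontal axis) of the 8 genes highest and the 8 lowest in spt16-1 relative to ssrp1-2 among those that passed. Each point is an array and each tick a mean, with spt16-1 in orange above ssrp1-2 in green and wild type in grey. SWI1 is near 6 in spt16-1 and at 3.17 to 4.0 in the other arrays, while AT2G20142 lies between the other genotypes.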

How the data were processed

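Each of the 9 pools gave 1 array. The authors deposited log2 expression values, made with Affymetrix Expression Console 1.3 by RMA, as the submitters' processing notes record without a version for RMA. RMA corrects background and gives all arrays a common distribution, so a global difference in RNA amount would not show. Arrays carry no counting depth, and their number limits the precision.

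GEO's platform annotation named 1 gene for 16722 of the 28501 probe sets, several for 759 and none for 11020. RefSeq's TAIR10.1 annotation, matched by 16574 of the 16722, gave symbols and gene order only. The 148 genes with several probe sets were not averaged.

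Two-sided tests used lmFit and eBayes (limma 3.58.1, R 4.3.3) on all 9 arrays with genotype as the only term, so ssrp1-2 adds to the estimate of the spread. P-values were adjusted by Benjamini-Hochberg over the 28501 probe sets, with 0.05 as the threshold. An exact permutation test of 3 against 3 arrays cannot pass that threshold and was not used. Scripts were tested on simulated data. Errors after ± are SDs of 3 arrays unless marked SE.

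Genes and the 69 lists were chosen with earlier results of these data known. Named genes are the 20 higher and 15 lower with the largest change among those that passed without overlap, 4 members per list with the smallest p, 6 and 6 further genes by adjusted p, 8 and 8 by difference from ssrp1-2, and neighbouring pairs. All other genes with a symbol, and AT5G24210's comparison with wild type, were named after their values were seen. The alternatives tried are given with their values under the dependence on processing.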

Additional observations from a re-analysis of the deposited data

How the results depend on the processing

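The number of probe sets that passed depended on how the spread was estimated, while no gene named here that passed changed direction. No pairing by replicate number was seen between spt16-1 and wild type. Deviations of their same-numbered arrays correlated at -0.0645, -0.0504 and -0.135, and no array correlated best with its own number. The ssrp1-2 arrays were not part of that check. With the replicate block the totals that passed against wild type were 380 (576 without it), 183 with 1 gene (271), 120 higher (170) and 63 lower (101), and 171 of the 271 calls were kept. Against ssrp1-2 the block gave 117 (238 without it), and 50 with 1 gene (99). An intensity trend gave 1024 against wild type, 459 with 1 gene (269 higher, 190 lower), and 497 and 220 against ssrp1-2. The fit of 2 genotypes alone, with fewer arrays, gave 271, 124 (84 and 40), 80 and 34 in the same order, and the unmoderated test 437, 197 (131 and 66), 123 and 45. Quantile normalization gave 592, 275 (176 and 99), 244 and 100, and leaving out the lowest 25% of levels, which tests fewer probe sets, 743, 345 (214 and 131), 324 and 137. A 2-fold minimum left 105, 52 (38 and 14), 46 and 22. Without 1 array the counts were 293 to 340 against wild type, 131 to 160 with 1 gene, 84 to 105 higher and 44 to 59 lower, and 91 to 128 and 38 to 58 against ssrp1-2. The cause of the change was not tested for any of these settings. Of the 271 calls with 1 gene, 91 were kept under every alternative except the 2-fold minimum. Of the 99 against ssrp1-2, 24 were kept without any 1 array. Signal near the lowest 25% of levels limits what could be called for genes of low level.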

Other observations

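Probe sets without exactly 1 annotated gene also responded in spt16-1. Of 11779 such probe sets, unnamed or with several genes, 305 passed against wild type (2.59%), 176 higher and 129 lower. Their genes are not analysed here. Among genes measured by more than 1 probe set, AT4G17100 was higher by 0.77 and 0.76 at both of its probe sets, and the call at the second ended without any array but spt16-1 replicate 2 (adjusted p 0.0994 to 0.122). AT4G38550 was higher by 0.87 at 1 probe set and had -0.070 at its second. Levels of AT4G38550 at the called probe set were 8.27, 8.44 and 8.29 in spt16-1, against 7.58, 7.35 and 7.49 in wild type.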
